A study of Homo sapiens with 18 samples.

Results

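The 35 genes described here encode the machinery that folds secretory proteins in the endoplasmic reticulum (ER) and removes those that fail to fold. They comprise 11 chaperones and their cofactors, 10 enzymes of oxidative folding, 8 components of ER-associated degradation (ERAD), 4 regulators of the stress response (3 sensors and XBP1) and 2 components of translocation into and export from the ER. The genes were taken by symbol from a list of the pathway's members. All 35 were among the 23411 gene symbols counted, and all 35 kept enough counts to be tested in every comparison. mRNA was sequenced from 18 samples of ARPE-19, an established human cell line of the retinal pigment epithelium (RPE), with 3 samples in each of 6 groups. Control cells (genotype WT in the labels) had received the Cas9 lentivirus without a guide RNA, and NRF2 ΔC cells (NRF2-edited in the labels) had been edited with CRISPR/Cas9 in the final exon of NFE2L2, which truncates NRF2. The 9 NRF2 ΔC samples came from 1 clone, so the edit and other features of that clone cannot be told apart. Each line was left untreated with Milli-Q water, treated with 1 mM N-acetyl-L-cysteine ethyl ester (NACET), or treated with 0.2 mM H2O2. The sample labels give a 2 h treatment after 22 h in 1% serum, whereas the series text gives 8 h after 40 h in 10% serum, although its opening line names 1% serum. The study's account of this experiment gives 8 h of treatment, begun 40 h after seeding, as in the series text. It also states 10% serum for all experiments that followed its first transcriptome analysis.

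Proteins enter the ER unfolded, and chaperones such as BiP (HSPA5) and GRP94 (HSP90B1) hold them while they fold. Protein disulfide isomerases pass disulfide bonds to the folding chains, and ERO1 oxidases re-oxidise the isomerases with molecular oxygen, producing H2O2. Chains that stay unfolded are carried back to the cytosol by ERAD and destroyed by the proteasome. When unfolded proteins accumulate, the sensors IRE1 (ERN1), PERK (EIF2AK3) and ATF6 start the unfolded protein response: IRE1 splices XBP1 mRNA, ATF6 and spliced XBP1 raise transcription of chaperone and ERAD genes, and PERK acts through ATF4. Both agents bear on this chemistry, NACET as a precursor of the thiol cysteine and H2O2 as an oxidant. The question is how the level of each of these mRNAs differed between treated and untreated cells of each line.

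The libraries held 16673306 to 25951154 reads counted on genes, and the 35 genes took 0.952 to 1.38% of them. Levels are given as CPM, reads per 1000000 counted on genes. They were scaled with the TMM method for library composition, and they are relative to the other mRNAs of the same library. NFE2L2 ranged from 102 to 152 CPM, and untreated NRF2 ΔC cells did not pass the test against untreated control cells (log2 fold change 0.02, standard error 0.09, adjusted p = 0.963), but counts over the whole gene do not show an edit in its last exon. Of 11 RPE markers, RPE65, TYR and RLBP1, which serve the visual cycle and pigment formation, did not pass 0.0589, 0.501 and 0.392 CPM in any library, and SERPINF1, PMEL and TYRP1 ranged from 0.718 to 13.2 CPM. BEST1 ranged from 0.184 to 3.54 CPM and rose with H2O2 in both lines (log2 fold changes 1.70 and 3.76). The transcription factor genes OTX2 and MITF were at 105 and 64.9 CPM or more, and the epithelial keratin genes KRT8 and KRT18 at 428 and 260 CPM or more. Within a line, replicates of equal number varied together. A member is said to have passed the test when its adjusted p was under 0.05 in edgeR's fit of the compared groups, and values with the replicate number as a block are given beside it because the block changed many calls. "Only with the block" compares that fit with and without the block. In some comparisons DESeq2 or 1 edgeR fit of all 18 samples called more members without any block, as counted in the last section.

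Some of the genes that respond to ATF6 and XBP1 carry a known promoter element, the ER stress response element (ERSE). It consists of CCAAT and CCACG separated by 9 bases. In its variant ERSE-II, ATTGG and CCACG are separated by 1 base. Promoters of 250 bases before to 50 after the transcription start, from RefSeq (GRCh38.p14), were available for 31 of the 35 members and searched on both strands. An ERSE was found in 8 members and an ERSE-II in 3, which makes 11 of 31 members with either, against 0.161% of the 27305 genes in the promoter table. The members were listed for their part in this pathway, so the contrast is no test of these elements. The windows around these elements are shown for the 6 such members with the highest mean CPM, 5′ to 3′ in the direction of the gene, with the element's letters in capitals. Elements on the opposite strand read CGTGG before ATTGG, or CGTGG before CCAAT for ERSE-II. The windows of XBP1 and HERPUD1 were added after their values had been seen, because among the members with an element their mRNAs had the largest changes with H2O2 in NRF2 ΔC cells.

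HSP90B1 (chr12:103930206-103930349, plus strand): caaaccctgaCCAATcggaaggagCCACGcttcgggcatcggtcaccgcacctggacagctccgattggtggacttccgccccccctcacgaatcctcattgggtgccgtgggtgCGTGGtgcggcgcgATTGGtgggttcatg
CALR (chr19:12938374-12938412, plus strand): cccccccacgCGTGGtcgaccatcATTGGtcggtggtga
HSPA5 (chr9:125241381-125241419, minus strand): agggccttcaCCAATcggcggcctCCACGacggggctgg
CANX (chr5:179698768-179698806, plus strand): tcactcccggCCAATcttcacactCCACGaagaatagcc
PDIA6 (chr2:10812843-10812881, minus strand): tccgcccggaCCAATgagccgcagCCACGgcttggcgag
HYOU1 (chr11:119057264-119057400, minus strand): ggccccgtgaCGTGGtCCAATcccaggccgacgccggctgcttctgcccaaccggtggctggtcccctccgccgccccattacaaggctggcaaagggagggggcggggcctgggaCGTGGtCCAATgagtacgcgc
XBP1 (chr22:28800593-28800631, minus strand): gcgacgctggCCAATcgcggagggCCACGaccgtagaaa
HERPUD1 (chr16:56932015-56932045, plus strand): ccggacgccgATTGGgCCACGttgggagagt

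HSP90B1 and HYOU1 each held 2 elements, and the single CANX copy lay within 3 overlapping promoters of that gene. CRELD2 and ERO1LB were the other members with an ERSE and SDF2L1 the other with an ERSE-II. The core of the unfolded protein response element, TGACGTGG, was present in HYOU1, TXNDC5 and TXNDC11, against 0.927% of genes, and in HYOU1 it overlapped an ERSE-II. The core of the antioxidant response element that NRF2 binds, TGACNNNGC, was present in 8 members (16.1% of genes), and the core of the element bound by ATF4 with C/EBP factors, TGATGNAA, in HERPUD1 alone among the members (4.46% of genes). A match of letters is a description and says nothing of binding.

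**Figure D1:**
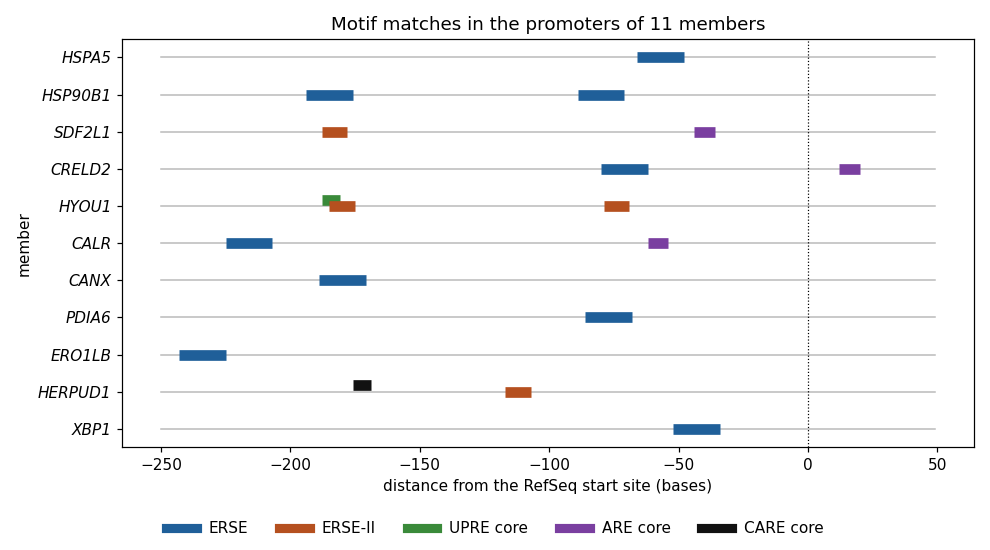
Positions of motif matches in the promoters of the 11 members with an ERSE or ERSE-II, on either strand, in bases from the RefSeq transcription start (dotted line); for CANX 1 of its promoters is drawn. The ERSE of HSPA5 spans -66 to -48 and that of XBP1 -52 to -34.

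The folding genes spanned a wide range of levels. Per kilobase of the canonical transcript, averaged over the 18 libraries, P4HB, the commonest protein disulfide isomerase, was highest at 1027 CPM per kb. It was followed by the lectin chaperone CALR at 761, HSP90B1 at 619, HSPA5 at 281 and the membrane lectin CANX at 215 CPM per kb. The sensor gene ERN1 was lowest at 0.54 CPM per kb, below DERL3 at 1.30 and ERO1LB at 1.44. These 3 genes also had the fewest counts, with 19 for DERL3, 49 for ERN1 and 117 for ERO1LB in their lowest libraries.

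In control cells NACET moved none of the 35 members past the test, where 3.67% of 13696 genes passed in either direction, 4 members had an unadjusted p under 0.05 (20.8% of all genes did), and DESeq2 called 3 (8.03%). With the replicate block 10 members were higher (20.1% of all genes were) and 7 lower (20.6%). H2O2 in control cells raised XBP1 and lowered MANF and PDIA5 (3 of 35 members, 13.2% of all genes in either direction), and the block gave 5 higher (24.1% of genes) and 18 lower (24.6%). For NACET in NRF2 ΔC cells XBP1 alone passed (1.43% of genes), and with the block 11 members were higher (16% of genes) and 4 lower (18.1%). H2O2 in NRF2 ΔC cells raised XBP1, HERPUD1, HSPA5 and DNAJB11 (4 of 35, 11.1% of genes), and with the block 12 members were higher (21.9% of genes) and 4 lower (24.7%). As shares of the 35, the members that passed under the block in control cells made up 28.6% higher and 20% lower with NACET and 14.3% and 51.4% after H2O2. They made up 31.4% and 11.4% with NACET and 34.3% and 11.4% with H2O2 in NRF2 ΔC cells. The lower share with H2O2 in control cells was thus the one that stood farthest above that of all genes. The median log2 fold change of the members in control cells was 0.04 with NACET and -0.14 with H2O2, and 0.16 and 0.02 were the values in NRF2 ΔC cells, beside -0.0086 to -0.0038 for all genes. The NACET and H2O2 comparisons of a line share its 3 untreated samples, so their values are given side by side only. Groups without overlap were common among all genes. With NACET in control cells 5 members lay wholly higher and 3 lower (1748 and 1883 of 13696 genes). With H2O2 there, 2 and 8 did (2464 and 2328 of 13691 genes). In NRF2 ΔC cells the counts were 8 and 1 with NACET (1795 and 1590 of 13542 genes) and 10 and 0 with H2O2 (2482 and 2130 of 13543 genes).

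**Figure D2:**
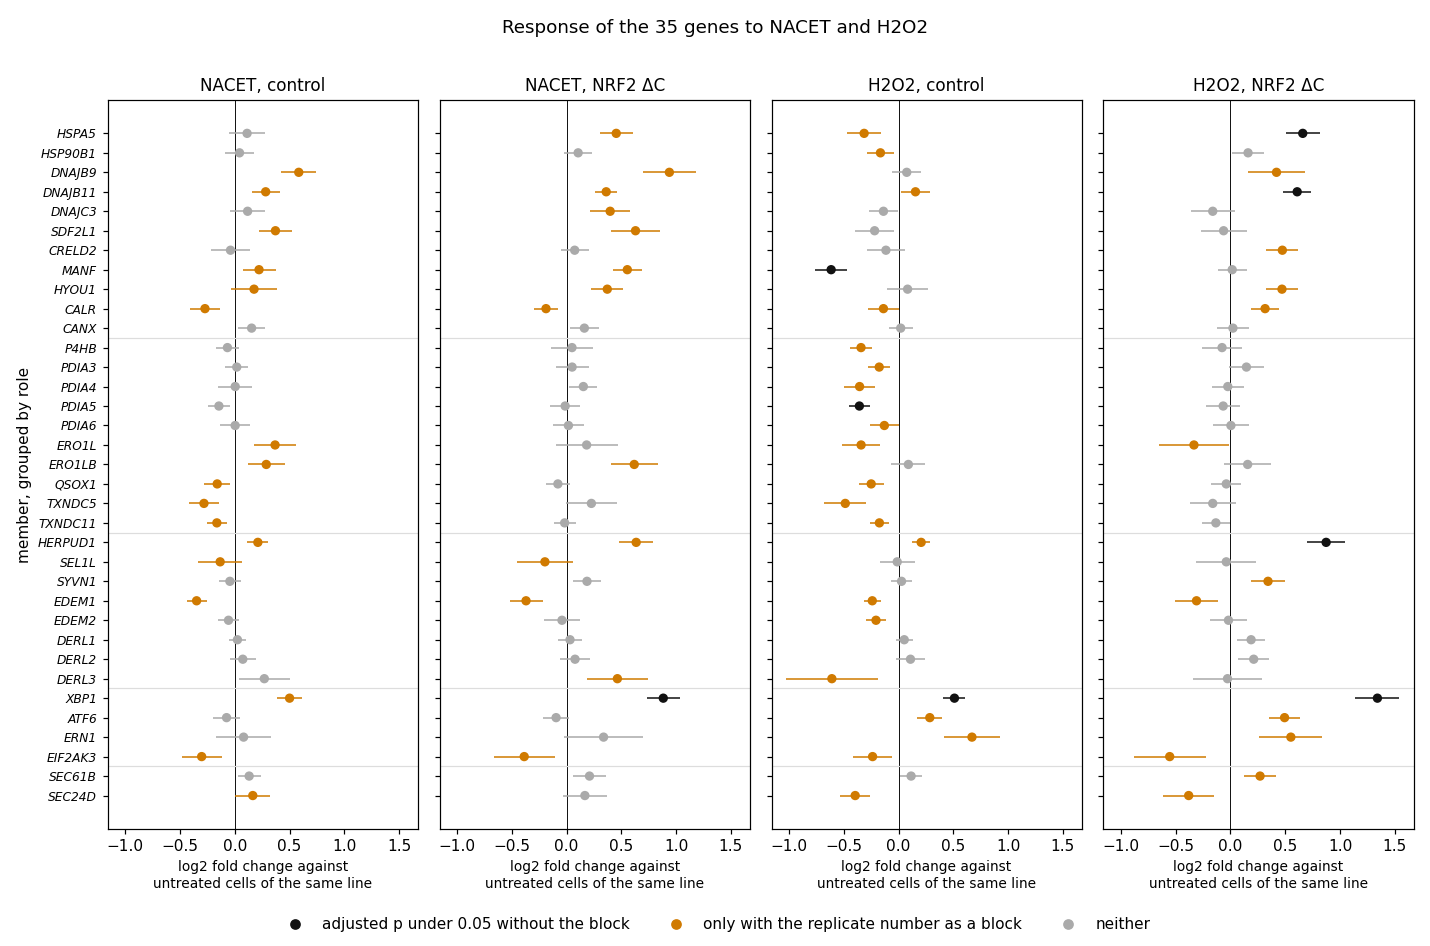
Log2 fold change against untreated cells of the same line (points) with its standard error (bars) from the edgeR fit without the block, for the 35 members in 4 comparisons of 3 against 3 samples; colours give the test passed. XBP1 lies at 0.51 with H2O2 in control cells and at 1.34 in NRF2 ΔC cells.

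Among the stress regulators XBP1 was the member that passed without the block, in 3 of the 4 comparisons with untreated cells. In control cells XBP1 was at 50.9, 56.8 and 49.2 CPM untreated, at 68.7, 84.1 and 67.6 CPM with NACET, and at 67.2, 79.8 and 76.1 CPM with H2O2. Untreated NRF2 ΔC cells had 58.3, 62.2 and 55.6 CPM, NACET-treated ones 94.7, 136.6 and 98.0 CPM, and H2O2-treated ones 118.9, 202.2 and 132.6 CPM. In both lines every treated sample lay above every untreated sample, and replicate 2 was the highest of each group. XBP1 rose with H2O2 by 0.51 on the log2 scale in control cells (standard error 0.10, adjusted p = 0.0172) and by 1.34 in NRF2 ΔC cells (0.20, adjusted p = 0.00649). With NACET it rose by 0.88 in NRF2 ΔC cells (0.15, adjusted p = 0.0373), while the log2 fold change of 0.50 in control cells passed only with the block (adjusted p = 0.0615 without it and 5.11e-12 with it). The counts do not tell spliced from unspliced XBP1 mRNA. The call in H2O2-treated control cells was lost without their replicate 2 (0.46), and that in NACET-treated NRF2 ΔC cells without any single library of that comparison but replicate 1 of NACET (0.71 to 0.98 over the 6 libraries left out). Over all genes, 310 passed in the first of these fits, against 1809 with all libraries. In the NACET fits that lost XBP1, 0 to 139 genes passed, against 194. With H2O2 in NRF2 ΔC cells XBP1 passed whichever library was left out (1.09 to 1.5). The call in H2O2-treated control cells was also lost in 1 edgeR fit of all 18 samples (0.51, adjusted p = 0.0737), where 11.7% of all genes passed.

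Against untreated cells the 3 sensor genes passed only with the block. ATF6, whose product moves to the Golgi and is cut into a transcription factor, was at 108, 103 and 85.5 CPM in untreated control cells and at 127, 126 and 107 CPM with H2O2. In NRF2 ΔC cells it was at 105, 88.2 and 89.6 CPM untreated and at 144, 144 and 117 CPM with H2O2. The groups overlapped in control cells by 1 sample and did not overlap in NRF2 ΔC cells (log2 fold changes 0.29 and 0.49, adjusted p = 0.134 and 0.0537 without the block, 0.000179 and 2.12e-05 with it). ERN1 was scarce, with 2.26 to 6.52 CPM in any library, and was higher with H2O2 in both lines under the block (0.67 and 0.57). EIF2AK3 was lower under the block in all 4 comparisons, in control cells by -0.30 (NACET) and -0.24 (H2O2) and in the NRF2 ΔC line by -0.37 and -0.58. Its untreated values of 69.9, 38.5 and 38.7 CPM in NRF2 ΔC cells compare with 51.7, 24.3 and 26.1 CPM with H2O2, and replicate 1 stood above the other two in each.

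Of the chaperones, HSPA5 differed most between the lines in its values with H2O2. HSPA5 was at 988, 1178 and 823 CPM in untreated and at 763, 912 and 726 CPM in H2O2-treated control cells. In NRF2 ΔC cells it was at 1042, 917 and 850 CPM untreated and at 1492, 1738 and 1286 CPM with H2O2. All 3 pairs of equal number were lower with H2O2 in control cells, where the groups overlapped, and all 3 were higher in NRF2 ΔC cells, where they did not. The rise in NRF2 ΔC cells was 0.66 on the log2 scale (standard error 0.16, adjusted p = 0.0298), and the value of -0.31 in control cells passed only with the block (adjusted p = 0.202 without it and 8.64e-05 with it). With NACET HSPA5 was at 1242, 1536 and 1117 CPM in NRF2 ΔC cells, above all 3 untreated samples, and passed only with the block (0.45, adjusted p = 0.159 without it and 0.000362 with it). DNAJB11, an ER J-protein that delivers substrates to BiP, rose with H2O2 in NRF2 ΔC cells from 59.7, 58.3 and 59.1 to 90.4, 100.7 and 83.6 CPM (log2 fold change 0.61, standard error 0.13, adjusted p = 0.0201). Without untreated replicate 2 or 3 or H2O2 replicate 2 the calls of HSPA5 and DNAJB11 were lost (0.55 to 0.64 and 0.55 to 0.62 over these 3 fits).

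MANF, a secreted cofactor that stabilises BiP with its clients, was the chaperone-group gene lowered by H2O2 in control cells. It was at 59.2, 81.8 and 58.8 CPM untreated and at 39.6, 48.4 and 42.1 CPM with H2O2, with no overlap (log2 fold change -0.62, standard error 0.15, adjusted p = 0.0312). This call was lost without untreated replicate 2 or any single H2O2 replicate (-0.70 to -0.44 over 6 fits). In NRF2 ΔC cells MANF was at 60.3, 66.7 and 65.9 CPM untreated, at 62.7, 73.7 and 61.9 CPM with H2O2 and at 79.6, 106.7 and 100.9 CPM with NACET. SDF2L1, a partner of ER J-proteins, was at 14.9, 25.5 and 17.5 CPM in untreated, 24.3, 35.3 and 31.5 CPM in NACET-treated and 17.4, 20.2 and 18.9 CPM in H2O2-treated NRF2 ΔC cells. DNAJB9, a J-protein that restrains IRE1, was at 10.8, 10.9 and 8.30 CPM untreated, at 17.3, 27.0 and 14.2 CPM with NACET and at 12.2, 19.2 and 9.56 CPM with H2O2. Each of the 3 NACET samples of MANF, DNAJB9 and, against its own replicate, SDF2L1 lay above the untreated sample of the same number. With the block, NACET raised MANF, DNAJB9, SDF2L1, DNAJB11 and HYOU1 in both lines. Their log2 fold changes were 0.18 to 0.58 in control cells and 0.36 to 0.92 in NRF2 ΔC cells. In edgeR's fit of the compared groups without the block none of the 5 passed in either line.

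CALR, which assists glycoproteins together with calnexin, differed by treatment. NACET-treated cells were lower under the block in both lines (-0.26 in control and -0.19 in NRF2 ΔC cells). With H2O2 CALR was at 1797, 1979 and 1797 CPM in NRF2 ΔC cells, above all 3 untreated samples at 1542, 1465 and 1396 CPM, and at 1330, 1487 and 1224 CPM in control cells against 1496, 1703 and 1254 CPM untreated. These values passed only with the block (0.32, adjusted p = 0.0103, and -0.13, adjusted p = 0.0282). HYOU1, a nucleotide exchange factor of BiP, and CRELD2, a secreted isomerase-like protein, were higher with H2O2 in NRF2 ΔC cells under the block, by 0.48 each. HSP90B1 ranged from 1454 to 2096 CPM, and the calnexin gene CANX passed in no treatment comparison with untreated cells, with or without the block.

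**Figure D3:**
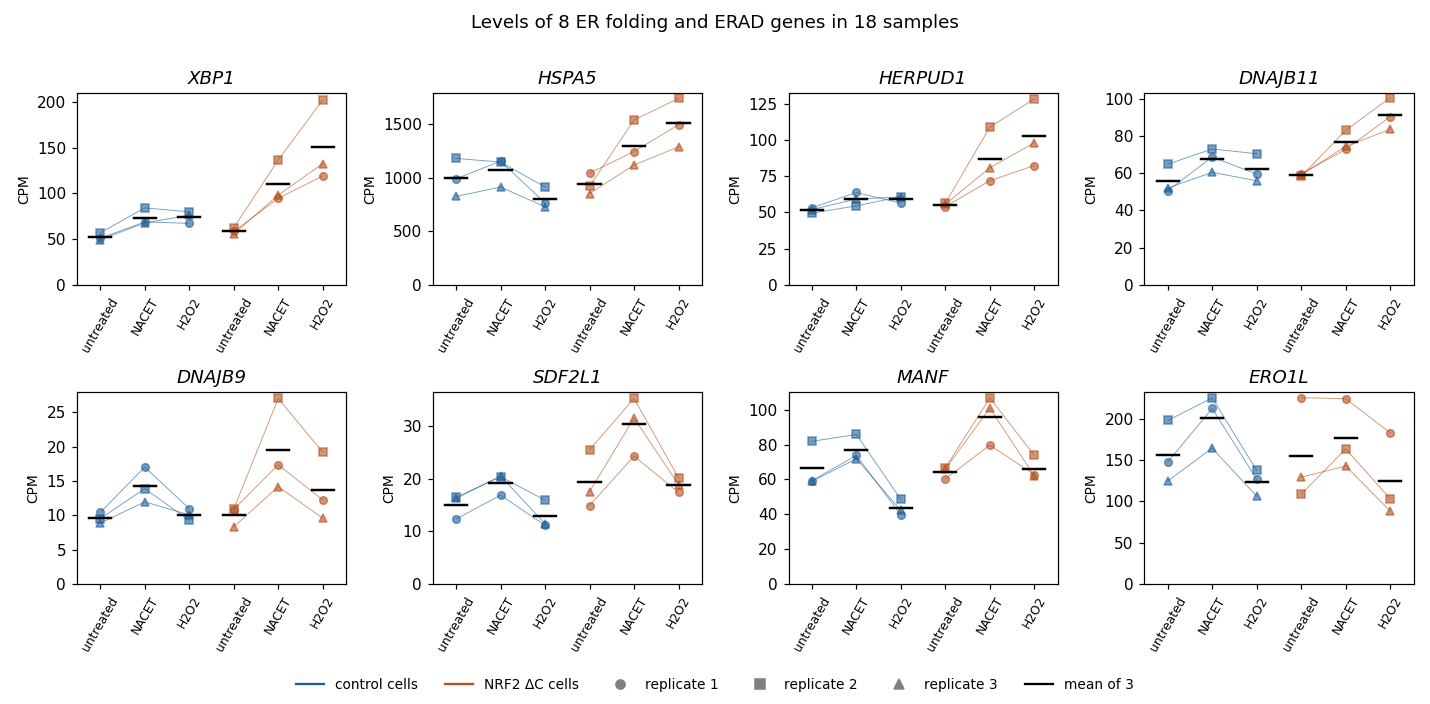
TMM-scaled CPM of 8 members in each of 18 samples (points, shaped by replicate number and joined within a replicate number; thin lines join samples of 1 number) with the mean of 3 samples (black bars); axes start at 0. HSPA5 in H2O2-treated cells lies between 726 and 912 CPM in control cells and between 1286 and 1738 CPM in NRF2 ΔC cells.

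Among the enzymes of oxidative folding 1 of 10 passed with H2O2 in control cells, as did 1 of 11 chaperones. PDIA5, a protein disulfide isomerase, fell from 76.8, 75.6 and 63.3 CPM to 56.5, 57.1 and 54.4 CPM without overlap (log2 fold change -0.36, standard error 0.10, adjusted p = 0.0479). The call was lost in 5 of the 6 fits that left out 1 library, all but that without untreated replicate 3 (-0.44 to -0.31 over the 6), and without a filter on low counts (adjusted p = 0.0537). P4HB was at 2576, 2453 and 2298 CPM untreated and at 1958, 1951 and 1859 CPM with H2O2 in control cells, again without overlap, but did not pass without the block (-0.34, adjusted p = 0.0642 without it and 8.42e-06 with it). With the block 9 of the 10 members of this group were lower in that comparison (24.6% of all genes), from -0.12 for PDIA6 to -0.49 for TXNDC5, and ERO1LB alone did not pass. PDIA3, the isomerase that works with the lectin chaperones, was at 337, 404 and 346 CPM untreated and at 314, 337 and 310 CPM with H2O2 (-0.18, adjusted p = 0.275 without the block and 0.00671 with it). In NRF2 ΔC cells 1 of the 10 passed with H2O2 under the block, ERO1L, which was lower. P4HB there was at 3509, 2333 and 2463 CPM untreated and at 2986, 2357 and 2666 CPM with H2O2, where replicate 1 stood above the others. TXNDC5 overlaps a read-through transcript, and reads shared with it may have gone uncounted.

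ERO1L, the main ERO1 oxidase, was at 148, 198 and 125 CPM in untreated control cells, at 213, 225 and 164 CPM with NACET and at 127, 137 and 106 CPM with H2O2. Every replicate number had its highest value with NACET and its lowest with H2O2. In NRF2 ΔC cells replicate 1 was high in all 3 groups, with 226 CPM untreated, 224 CPM with NACET and 183 CPM with H2O2, against 88.5 to 164 CPM in the other two replicates. Against untreated cells ERO1L passed only with the block, with log2 fold changes in control cells of 0.38 (NACET) and -0.33 (H2O2), and of -0.33 for H2O2 in the NRF2 ΔC line. ERO1LB, its scarce paralogue, was higher with NACET in both lines under the block (0.29 and 0.60). QSOX1, a secreted and Golgi sulfhydryl oxidase, was at 890, 750 and 913 CPM in untreated control and at 1165, 1117 and 1176 CPM in untreated NRF2 ΔC cells.

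HERPUD1, a stress-inducible membrane protein that organises the ERAD ligase complex, was the ERAD gene with the largest change in NRF2 ΔC cells with either agent. HERPUD1 was at 53.1, 49.4 and 51.9 CPM untreated, 63.7, 54.4 and 59.2 CPM with NACET and 56.3, 60.9 and 60.6 CPM with H2O2 in control cells. NRF2 ΔC cells had 53.9, 56.3 and 55.5 CPM untreated, 71.8, 108.7 and 80.7 CPM with NACET and 82.3, 128.4 and 98.0 CPM with H2O2. All treated samples lay above all untreated samples of their line, and replicate 2 was the highest of the treated NRF2 ΔC samples. With H2O2 HERPUD1 rose by 0.87 on the log2 scale in NRF2 ΔC cells (standard error 0.17, adjusted p = 0.0173), a call that was lost without untreated replicate 2 or 3 or H2O2 replicate 2 (0.69 to 0.89), and with NACET it passed only with the block (0.63, adjusted p = 0.0847 without it and 4.7e-05 with it). EDEM1, a mannosidase-like protein that sends misfolded glycoproteins to ERAD, was at 170, 183 and 172 CPM in untreated and at 137, 144 and 127 CPM in NACET-treated control cells, without overlap. Under the block EDEM1 was lower in all 4 treatment comparisons, from -0.24 to -0.36. The ligase SYVN1 was higher with H2O2 in NRF2 ΔC cells under the block (0.34), its adaptor SEL1L was lower with NACET in both lines under it (-0.14 and -0.20), EDEM2, a relative of EDEM1, was lower with H2O2 in control cells under it (from 50.2, 44.6 and 48.5 to 41.9, 39.8 and 42.2 CPM, -0.20), and the channel components DERL1 and DERL2 passed in none of the 4 comparisons.

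SEC61B, a subunit of the translocon, was higher with H2O2 in NRF2 ΔC cells under the block (0.27). SEC24D, a cargo adaptor of COPII vesicles, was at 63.7, 65.3 and 48.4 CPM untreated, 71.7, 71.7 and 54.1 CPM with NACET and 49.9, 44.4 and 40.4 CPM with H2O2 in control cells. It was lower with H2O2 in both lines under the block, by -0.39 each.

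Whether H2O2 acted differently in the lines was tested as an interaction over 12 samples, as the response of control cells minus that of NRF2 ΔC cells. HSPA5 had the largest difference, -0.99 (standard error 0.22), but no member passed (adjusted p = 0.227 for HSPA5; 0.0214% of 13987 genes passed), and 7 members had an unadjusted p under 0.05 (5.76% of genes). With the replicate numbers as a block within each line, which follows the pairing seen in these data, 9 of 35 members passed (6.91% of all genes in either direction), and for all 9 the difference was negative. These were HSPA5 (-0.98, adjusted p = 4.69e-05), XBP1 (-0.82, 0.00169), MANF (-0.64, 0.00232), HERPUD1 (-0.66, 0.00559), CRELD2 (-0.62, 0.00829), CALR (-0.46, 0.0113), DNAJB11 (-0.47, 0.0151), HYOU1 (-0.40, 0.0203) and PDIA4 (-0.34, 0.035). With 1 block of 3 numbers across both lines, 3 members passed, HSPA5, XBP1 and MANF (1.18% of genes), where untreated samples of equal number correlated between the lines for replicates 1 and 3 (0.71 each) but not for replicate 2 (-0.26). DESeq2 without a block called HSPA5 alone (-0.98, adjusted p = 0.00911, 0.503% of genes). The difference estimates were negative for 30 of 35 members for H2O2 (52.3% of all genes) and for 30 of 35 for NACET (47% of all genes). Both interactions use the same untreated samples of the lines, so these counts are not independent of each other. For NACET and cell line no member passed without a block (0.0643% of genes), with the common block (0.271%) or with the block within lines (0.9%), nor by DESeq2 (0.178%), and 1 member, HERPUD1, had an unadjusted p under 0.05 (1.63% of genes).

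**Figure D4:**
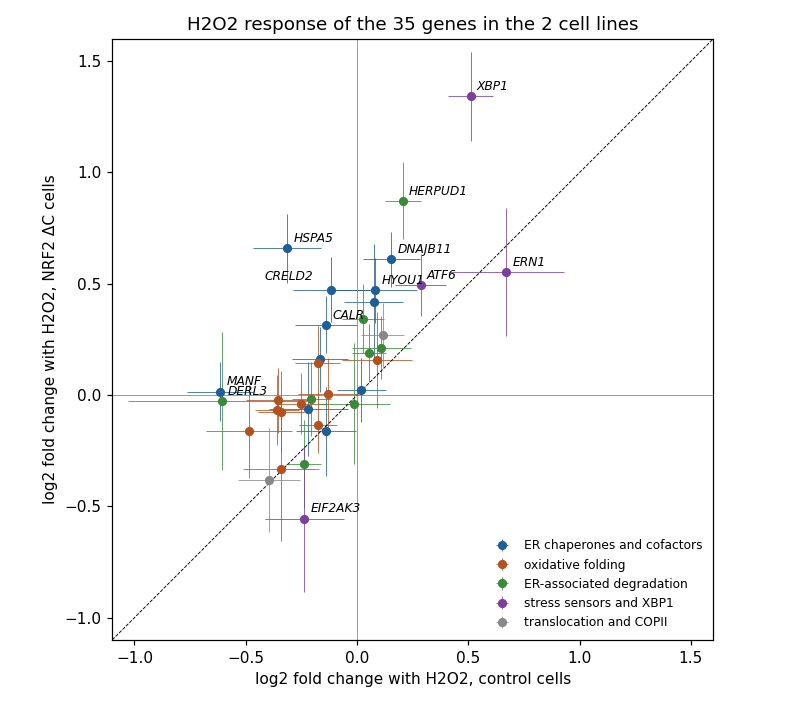
Log2 fold change with H2O2 in control cells (x axis) and in NRF2 ΔC cells (y axis) for the 35 members, with standard errors as bars and colours for the role; the dashed line marks equal change. HSPA5 lies at -0.31 and 0.66, and 30 of 35 points lie above the line.

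The treatments were also set against each other. In control cells MANF was 0.85 higher with NACET than with H2O2 on the log2 scale (standard error 0.11, adjusted p = 0.00769) and ERO1L 0.72 higher (0.15, adjusted p = 0.0309). These were 2 of 35 members (5.88% of genes), and the block gave 16 members higher (21.2% of genes) and 2 lower (20.3%), the 2 being ATF6 and ERN1. NRF2 ΔC cells had SDF2L1 (0.71, adjusted p = 0.0345) and MANF (0.56, 0.048) higher with NACET, and CALR (-0.48, 0.0349) and ATF6 (-0.57, 0.035) higher with H2O2. There 4 of 35 members passed (10.1% of genes), and with the block 11 were higher (26.4% of genes) and 7 lower (23.7%) with NACET. The first group under the block held ERO1L, DNAJC3 and SEC24D, and the second XBP1, HERPUD1 and HSPA5. Each call was refitted 6 times with 1 library left out. In 5 of the 6 fits ERO1L in control cells and MANF and CALR in NRF2 ΔC cells lost their calls. SDF2L1 and ATF6 lost theirs in 4 of the 6. MANF in control cells passed in all 6, with log2 differences of 0.76 to 0.93. Over all 13 alternatives, ERO1L was lost in 6 and MANF in NRF2 ΔC cells in 7.

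No member passed between untreated cells of the lines (4.07% of genes passed), and 1 member, QSOX1, had an unadjusted p under 0.05 (13.7% of genes). QSOX1 was higher in all 3 NRF2 ΔC samples than in any control sample, as were 1022 of 13710 genes (log2 fold change 0.44, standard error 0.12, adjusted p = 0.107). It passed with DESeq2 (0.45, adjusted p = 0.00961, 4.94% of genes) and with a block of the numbers across lines (adjusted p = 0.0233, 8.84% of genes).

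The other genes of the pathway were taken from 7 lists of 109 genes, of which 108 were in the files. With H2O2 17 of the 105 tested passed in control cells (14 higher and 3 lower) and 13 of 104 in NRF2 ΔC cells (11 higher and 2 lower), and with NACET 5 and 2, against 13.2%, 11.1%, 3.67% and 1.43% of all genes. The genes listed as the PERK-ATF4 arm, which restores amino acid supply and holds the cell-death factor CHOP (DDIT3), moved most. PERK activity was not measured, and whether PERK acted on these genes was not tested. Of the 8 genes in this list 6 rose with H2O2 in control cells and 7 in NRF2 ΔC cells, with median log2 fold changes of 1.68 and 2.81. The glutathione-degrading enzyme gene CHAC1 rose by 3.69 and 4.99, the asparagine synthetase gene ASNS by 3.04 and 3.42, and the pseudokinase gene TRIB3 by 2.20 and 3.81 (adjusted p = 0.00118 or less). With NACET ATF4 (0.65, adjusted p = 0.0434) and TRIB3 (0.68, 0.0484) rose in control cells and ASNS (1.38, 0.0348) in NRF2 ΔC cells. Among 20 further disulfide enzymes 6 of 18 tested passed with H2O2 in control cells, the sulfhydryl oxidase gene QSOX2 most (0.52, adjusted p = 0.019), with GPX8 (0.42) and TMX2 (0.41). TXNDC16 (-0.65), QSOX2 (0.53) and TXNDC12 (0.50) passed in NRF2 ΔC cells. ATF6B, the paralogue of ATF6, fell in all 4 treatment comparisons, in control cells by -0.64 (NACET) and -0.50 (H2O2) and in the NRF2 ΔC line by -0.70 and -0.47. SRPRB, the membrane anchor of the signal recognition particle receptor, rose in 3 of them (0.60, 0.76 and, with H2O2 in NRF2 ΔC cells, 0.93).

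Responses were last set beside the promoters. The 11 members with an ERSE or ERSE-II had a median log2 fold change of 0.32 with H2O2 in NRF2 ΔC cells (-0.06 to 1.34), and the 20 matched members with neither had -0.03 (-0.55 to 0.61). With NACET in NRF2 ΔC cells the medians were 0.37 and 0.11. Control cells had medians of 0.15 and -0.05 with NACET, and of -0.12 and -0.19 with H2O2. The ranges overlapped in all 4 comparisons. HSPA5, XBP1 and HERPUD1 were among the members with an element, and HSP90B1 with 2 elements had log2 fold changes of 0.16 with H2O2 and 0.10 with NACET in NRF2 ΔC cells. DNAJB11, which also passed with H2O2 in NRF2 ΔC cells (0.61), had neither element. Nor had DNAJB9, the member with the highest log2 fold change with NACET there (0.94, not passed without the block). Most members with an element belong to the group of 11 chaperones and cofactors. That group's medians were 0.32 with H2O2 and 0.37 with NACET in NRF2 ΔC cells, and -0.14 and 0.15 in control cells. Promoter and role cannot be told apart here.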

How the data were processed

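mRNA of 18 ARPE-19 samples was sequenced. The authors prepared TruSeq libraries, mapped single-end reads to hg19 with TopHat 2.1.0, counted reads per gene with HTSeq-count 0.11.2 without regard to strand or to mapping quality, and removed genes of ribosomal RNA. The deposited values are these raw counts per gene symbol, and the annotation is not given in the sources used here. Since strand was not used, reads of overlapping genes cannot be assigned with certainty. Summary lines that name no gene (25.8 to 27.9% of each file's total) were left out. Groups and replicate numbers were taken from the labels.

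For 7 comparisons of 2 groups, the 6 samples concerned were fitted with edgeR 4.0.16 in R 4.3.3 (TMM, filterByExpr, quasi-likelihood test), and 2 interactions on 12 samples. P-values were adjusted by Benjamini-Hochberg over all genes tested, and fold changes are edgeR's log2 estimates. CPM were computed from the counts with TMM library sizes. The counts on genes, 16673306 to 25951154 per library, are the depth, and replicates differed beyond counting error in all 18 pairs (chi-square per degree of freedom 10.4 or more), so that the spread of 3 samples sets the precision. Nothing says that replicates were separate cultures, so p-values measure the spread between these samples. Over 11007 genes, deviations from the group means of samples with the same number correlated at 0.471 to 0.874 within a line and at 0.71 for replicates 1 and 3 and -0.259 for replicate 2 between untreated samples of the lines. The pairing within lines comes from this check, and the labels do not say what the numbers mark.

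The members and lists were chosen with earlier results of these data known. All 35 members were named, with NFE2L2 and, from each other list, at most the 3 genes with the largest change among those that passed in a comparison. Promoters are RefSeq's, matched by symbol, 2 of them by a newer symbol (ERO1L and ERO1LB), and no entry was found for PDIA3, DERL1, DERL3 and SEC24D. Levels per kilobase used the canonical transcripts of GENCODE on GRCh37, which may not be the annotation counted. The fits without a block and with a block across lines were tried on simulated data for NACET in control cells and for the interaction with H2O2. The simulated replicate effects were shared by both lines, and the block within each line was not tried. Alternatives were DESeq2 1.42.0, RLE and upper-quartile scaling, 2 other filters on low counts, 1 fit of all 18 samples, a fold limit of 0.6 on the log2 scale, the replicate block, and leaving out each sample. A block within each line was added for the interactions after seeing the data.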

Additional observations from a re-analysis of the deposited data

Results flagged for a closer look

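The response to H2O2 differed between control and NRF2 ΔC cells for 3 members in the interaction test that took replicate numbers as blocks (1.18% of all genes). That block spans both lines, whose untreated samples of equal number correlated for replicates 1 and 3 but not for replicate 2. The differences, control minus NRF2 ΔC on the log2 scale, were -0.97 for HSPA5 (adjusted p = 0.00671), -0.82 for XBP1 (adjusted p = 0.0262) and -0.64 for MANF (adjusted p = 0.0306), from edgeR fits adjusted over all genes. Without a block their adjusted p-values were 0.227, 0.407 and 0.493, and with blocks within each line 4.69e-05, 0.00169 and 0.00232. HSPA5 was lower with H2O2 in 3 of 3 pairs of control samples and higher in 3 of 3 pairs of NRF2 ΔC samples, and the NRF2 ΔC samples are of 1 clone.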

How the results depend on the processing

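The number of members that passed depended most on the replicate block, which follows the pairing within lines. With it 17 members passed for NACET and 23 for H2O2 in control cells, 15 and 16 in NRF2 ΔC cells, 18 in each line for NACET against H2O2, and 1 between untreated lines and 3 in the interaction with H2O2, where replicate 2 did not correlate between lines. The block within lines gave 9 in that interaction. DESeq2 gave 3 members for NACET in control cells (8.03% of all genes), 5 for NACET (6.83%) and 7 for H2O2 (15.2%) in NRF2 ΔC cells, 1 between untreated lines (4.94%), 6 for NACET against H2O2 in control cells (9.99%) and 1 in the interaction with H2O2 (0.503%). In 1 fit of all 18 samples the counts were 4 and 8 for NACET and H2O2 in NRF2 ΔC cells (8.16% and 26.4% of all genes), 1 between untreated lines (6.06%) and 1 for NACET against H2O2 in control cells (6.29%). For H2O2 in control cells that fit kept 2, MANF and PDIA5, and lost XBP1 (11.7%). The fold limit left 1 for H2O2 in control cells and 1 for NACET against H2O2 in NRF2 ΔC cells. In each of these cases the cause was not tested.

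Leaving out 1 library gave 0 members in every fit for NACET in control cells and for both interactions, 0 to 5 for H2O2 in control cells (0 without the second H2O2 replicate), 0 to 3 for NACET and 1 to 7 for H2O2 in NRF2 ΔC cells, 0 to 1 between untreated lines, and, for NACET against H2O2, 1 to 5 (control) and 0 to 5 (NRF2 ΔC). Counts over all genes moved in these fits too. They were 31 to 377 for NACET and 310 to 1692 for H2O2 in control cells, against 503 and 1809 with all libraries. For NACET in NRF2 ΔC cells they were 0 to 470, against 194. For H2O2 in NRF2 ΔC cells 1 member, XBP1, passed without untreated replicate 2 or 3 or H2O2 replicate 2. No log2 fold change of the 14 calls named without a block changed direction under the 13 alternatives tried for each. Depth limits DERL3, ERN1 and ERO1LB most.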
